A study of Mus musculus with 24 samples.

Results

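Growing oocytes of 40 to 45 µm in diameter, named GO1 in the study, were compared between Snf2h conditional knockout (KO) and wild-type (WT) mice by RNA-seq. The comparison rested on 4 of the 24 samples of the series, 2 KO and 2 WT libraries, and on all 14557 of 16940 genes with at least 1 RPKM (reads scaled to gene length and to the reads of the library) in at least 2 of the 16 RNA-seq libraries. The KO oocytes carried ZP3-Cre together with Snf2h(fl/fl), and the WT oocytes carried Snf2h(fl/fl) with no Cre listed. All came from B6/129 mice whose age is not given, so both genotypes share the floxed alleles. ZP3-Cre is driven by the promoter of a zona pellucida gene that is active in growing oocytes. An effect of the Cre transgene itself and an effect of Snf2h loss cannot be told apart in this design. Each library held 20 oocytes, and no label ties the 2 libraries of a group to different animals. The p-values therefore measure only the spread between samples, which may be technical. The spread of each gene was estimated over all 16 RNA-seq libraries, not over the GO1 libraries alone. Larger growing oocytes of 50 to 55 µm (GO2) and fully grown oocytes above 70 µm, taken with no hormone given (nFGO) or after hormone stimulation (FGO), came from the same genotypes with 2 libraries each. They served to place the GO1 changes, and the 8 ATAC-seq samples were not analysed here.

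Snf2h, encoded by Smarca5, is an ATPase of the ISWI chromatin remodellers. These complexes slide nucleosomes along DNA and set their spacing, and each pairs an ISWI ATPase with a partner subunit such as Baz1a, Bptf, Rsf1 or Cecr2. Oocytes of this size are arrested in meiotic prophase, enlarge inside the follicle and transcribe the stock of maternal RNA that the egg and early embryo later use. Gene families that expanded in rodents and are read mainly in oocytes, among them the oogenesins, the Fbxw F-box genes and the Nlrp4 and Nlrp9 genes, are part of that stock.

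The GO1 libraries summed to 869116 to 920336 RPKM and held 12613 to 12842 genes at 1 RPKM or more. The replicates of KO differed by a median of 0.273 on the log2(RPKM + 1) scale, those of WT by 0.151 and those of the other 6 groups by 0.135 to 0.187. The test used the same spread of a gene for every group, so it can understate the spread of KO at GO1. KO replicate 1 was the library farther from WT, with a median distance of 0.325 from the WT mean across genes, against 0.208 for KO replicate 2. The 13 oocyte markers summed to 27614 and 34138 RPKM in the KO libraries, against 35554 and 33158 RPKM in WT. For granulosa cells, 6 of 14 markers were in the table, none of them at 0 in all GO1 libraries, and summed to 14.3 and 18.2 RPKM in KO, against 21.4 and 20.5 RPKM in WT. Theca and stroma markers, 6 of 14 in the table, summed to 3.58 and 3.12 RPKM in KO and 3.70 and 1.80 RPKM in WT. Endothelial markers, 4 of 8 in the table, summed to 3.06 and 3.62 RPKM in KO and 2.92 and 3.68 RPKM in WT. Blood and immune markers, 3 of 15 in the table and mostly C1qb, summed to 23 and 32.4 RPKM in KO and 27.6 and 24.1 RPKM in WT.

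Smarca5 (chromosome 8) was nearly lost at this size. It had 1.61 and 2.06 RPKM in the KO libraries, against 40.0 and 43.0 RPKM in WT. Both KO libraries lay far below both WT libraries, and the log2 difference was -3.91 (SE 0.40, adjusted p = 0.000499). The other 11 ISWI partner genes tested did not pass the test. Baz1a had 41.1 and 35.8 RPKM in KO and 36.4 and 39.5 RPKM in WT (log2 difference 0.02), and Pole3, a histone-fold subunit, had 120 and 130 RPKM in KO and 132 and 138 RPKM in WT (-0.11). Bptf, the large subunit of the NURF complex, had 29.2 and 17.3 RPKM in KO and 14.9 and 16.3 RPKM in WT (0.50, adjusted p = 0.122). Smarca5 was thus the only member of the list that was called. With 2 libraries per group, smaller changes of the other members are not excluded.

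Across the transcriptome 965 genes changed at an adjusted p under 0.05, which is 6.63% of the genes tested: 314 were higher in KO (2.16%) and 651 lower (4.47%). Falls were also the larger changes, with 222 of the 275 genes that moved at least 2-fold being lower in KO. The median change was -0.83 on the log2 scale among genes that fell and 0.67 among those that rose, and -0.03 over all genes tested. The count depended on single libraries. It was 231 without WT replicate 1, 241 without WT replicate 2, 243 without KO replicate 1 and 2741 without KO replicate 2, and 16 with the 4 GO1 libraries alone, a fit with 2 residual degrees of freedom. Of the 965 genes, 115 (0.79% of those tested) kept their call whichever GO1 library was left out, 97 lower (0.666%) and 18 higher in KO (0.124%), and these carry most of the examples that follow. The libraries of the genotypes did not overlap for 50.3% of all genes tested (22.7% with KO higher, 27.7% with KO lower), so non-overlap of these 4 libraries is common. All 965 called genes showed it, so non-overlap of a called gene, where stated below, adds nothing to its call.

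**Figure D1:**
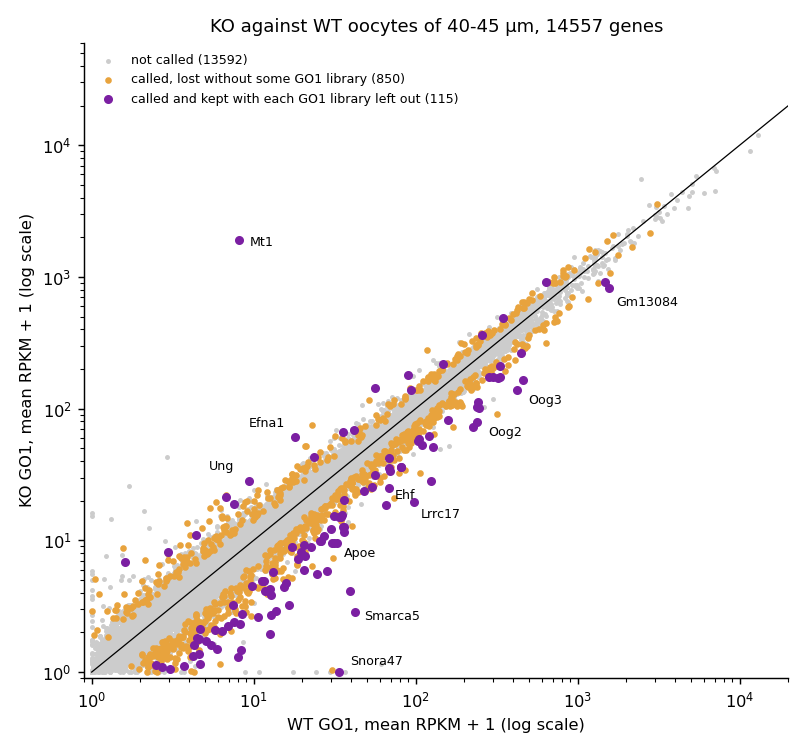
Mean RPKM + 1 of each of 14557 genes in KO GO1 oocytes (vertical, log scale) against WT GO1 oocytes (horizontal, log scale), with the line of equality. Purple points are the 115 genes whose call was kept with each GO1 library left out, and 97 of them lie below the line; Mt1 stands far above it.

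The largest change was the rise of Mt1, which encodes the metal-binding protein metallothionein 1. It had 2074 and 1726 RPKM in KO and 7.09 and 7.12 RPKM in WT (log2 difference 7.87, SE 0.31, adjusted p = 1.35e-07). Both KO libraries stood far above both WT libraries, and a gene-level value does not show which part of the gene the reads came from. Mt4, another metallothionein gene, had 44.5 and 43.9 RPKM in KO and 35.9 and 45.2 RPKM in WT (0.13, adjusted p = 0.761).

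The oogenesin genes Oog1 to Oog4 fell in KO. Oogenesins belong to the PRAME family of leucine-rich-repeat proteins and are read in oocytes and early embryos. All 4 genes named Oog passed the test as lower in KO. Oog2 had 57.2 and 100 RPKM in KO and 220 and 259 RPKM in WT (log2 difference -1.64, SE 0.21, adjusted p = 0.00136). Oog3 had 102 and 175 RPKM in KO and 362 and 480 RPKM in WT (-1.63, SE 0.20, adjusted p = 0.00103). For both genes each KO library lay well below the lower WT library, and both kept their call with each GO1 library left out. Oog4 had 543 and 810 RPKM in KO and 1231 and 1099 RPKM in WT (-0.81, adjusted p = 0.0241), and Oog1 65.6 and 54.5 RPKM in KO and 91.5 and 89.6 RPKM in WT (-0.59, adjusted p = 0.00989). These smaller falls lost their call with single libraries left out: the adjusted p of Oog4 was 0.14, 0.079 and 0.17 without WT replicate 1, WT replicate 2 and KO replicate 1, and that of Oog1 was 0.071 and 0.059 without WT replicate 1 and WT replicate 2. Of the 7 genes of the oogenesin list 4 fell and 0 rose, with a median of -0.59 against -0.03 over all genes; 4.47% of all genes fell. The count of falls was 2, 2, 3 and 5 without WT replicate 1, WT replicate 2, KO replicate 1 and KO replicate 2, and the median ran between -1.01 and -0.52. The members are near-identical in part, so reads may have been shared among them in the authors' counting.

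Since the Oog genes moved together, their promoters are shown from RefSeq (GRCm38.p6), from 250 bases before to 50 bases after the start site, on the strand of the gene. Capitals mark the longest run of letters that all of them share, TTCAGCTGAAA, 11 bases long, whose core CAGCTG is an E-box. The windows are chr12:87602415-87602714 (plus strand) for Oog1, chr4:144190467-144190766 (plus strand) for Oog2, chr4:144162602-144162901 (minus strand) for Oog3 and chr4:143450275-143450574 (minus strand) for Oog4.
Oog1: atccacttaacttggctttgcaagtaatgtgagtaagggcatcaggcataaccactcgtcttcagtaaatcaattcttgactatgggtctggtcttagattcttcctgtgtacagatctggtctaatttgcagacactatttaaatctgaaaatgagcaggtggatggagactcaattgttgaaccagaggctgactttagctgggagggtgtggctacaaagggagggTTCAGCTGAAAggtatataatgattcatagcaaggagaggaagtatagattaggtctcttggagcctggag
Oog2: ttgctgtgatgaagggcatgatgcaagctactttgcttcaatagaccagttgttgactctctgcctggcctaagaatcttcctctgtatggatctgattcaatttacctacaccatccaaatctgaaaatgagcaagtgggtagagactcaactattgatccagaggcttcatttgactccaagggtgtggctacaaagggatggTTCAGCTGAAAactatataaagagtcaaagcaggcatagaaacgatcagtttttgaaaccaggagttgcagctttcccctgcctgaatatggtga
Oog3: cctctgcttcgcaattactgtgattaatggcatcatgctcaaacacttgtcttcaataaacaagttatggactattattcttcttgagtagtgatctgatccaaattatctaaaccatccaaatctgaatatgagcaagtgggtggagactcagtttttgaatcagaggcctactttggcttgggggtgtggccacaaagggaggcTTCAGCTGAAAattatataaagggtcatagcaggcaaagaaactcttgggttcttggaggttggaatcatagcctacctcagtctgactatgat
Oog4: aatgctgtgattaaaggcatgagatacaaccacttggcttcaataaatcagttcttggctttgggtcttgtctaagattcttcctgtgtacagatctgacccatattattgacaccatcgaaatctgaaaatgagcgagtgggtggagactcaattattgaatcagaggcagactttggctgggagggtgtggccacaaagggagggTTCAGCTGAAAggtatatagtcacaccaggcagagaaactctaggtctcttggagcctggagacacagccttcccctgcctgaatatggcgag
The run began 21 bases before the start site of Oog1 and 43 to 45 bases before those of Oog2, Oog3 and Oog4. On either strand it was held by 17 of the 32851 promoters of the table (0.0517%), while the core CAGCTG was held by 16.3%. The 17 promoters belong to 16 genes, of which 10 were tested, and 7 of these fell in KO and 0 rose, against 4.47% and 2.16% of all genes. The Oog genes defined the run and were chosen for their fall, so their 4 falls carry no information on it. Of the other 6 tested genes 3 fell, namely Gm13084, Gm13089 and C87499, which RefSeq names Pramel26, Pramel23 and Pramel32, so all 7 are of the PRAME family and share descent. C87499 had 106 and 120 RPKM in KO and 153 and 168 RPKM in WT (-0.50, adjusted p = 0.00922), and kept its call in 2 of the 4 single omissions of a GO1 library; Gm13089 lost its call without WT replicate 2 (adjusted p = 0.066). The remaining 3, Kcnj13, Pik3ip1 and Gm2042, did not pass the test, with log2 differences of -0.66, 0.08 and -0.60. Of the 12 tested genes with a promoter in the PRAME-like stretch of chromosome 4, described next, 5 held the run (41.7%). Among them are Oog2, Oog3 and Oog4, which defined the run and so hold it by construction. The others are Gm13084 and Gm13089. C87977 and Pramef20 of that stretch also fell (-1.48 and -1.26) and are not among the 16 genes with the run. A match of letters is a description only.

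Oog2, Oog3 and Oog4 lie in a stretch of chromosome 4 (mm10, 143412426 to 144408464, about 0.996 Mb) that runs from Pramef8 to Pramef12 and is made up of PRAME-like genes. The stretch was chosen after its values were seen, so the following counts are a description. Of its 18 tested genes 11 fell (61.1%, against 4.47% of all genes) and 0 rose, with a median log2 difference of -0.86. Summed over the stretch, expression was 2428 and 3279 RPKM in KO and 5302 and 5870 RPKM in WT, and both KO libraries lay below both WT libraries. The count of falls was 7 to 12 with single GO1 libraries left out. Gm13058, at the low end of expression, had 0.498 and 1.37 RPKM in KO and 9.80 and 13.3 RPKM in WT (-2.72, adjusted p = 0.00147). Gm13084 had 753 and 901 RPKM in KO and 1345 and 1791 RPKM in WT (-0.91, adjusted p = 0.00373). Pramef20 had 82.8 and 119 RPKM in KO and 240 and 239 RPKM in WT (-1.26, adjusted p = 0.000717), and C87977 137 and 193 RPKM in KO and 535 and 384 RPKM in WT (-1.48, adjusted p = 0.000945). Neighbours inside the same stretch did not all move. Pramef8 had 8.31 and 8.24 RPKM in KO and 8.65 and 8.69 RPKM in WT (-0.06, adjusted p = 0.817), and Pramef12 had 83.4 and 40.7 RPKM in KO and 42.3 and 41.5 RPKM in WT (0.47, adjusted p = 0.309). At the later sizes 3 of the 18 genes fell at GO2 and 1 rose, Pramef8 (0.51, adjusted p = 0.0406), while 6 fell at nFGO and 7 at FGO, with medians of -0.40, -0.40 and -0.42.

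Farther along chromosome 4 (145670685 to 147848366, about 2.18 Mb, also chosen after its values were seen) lies a cluster of zinc-finger genes from Zfp980 to Zfp933. KRAB zinc-finger proteins of such clusters bind DNA, and many are known to repress transposable elements. Of the 18 tested genes of the cluster 8 fell (44.4%, against 4.47% of all genes) and 0 rose, 4 of them with each GO1 library left out. Zfp982 had 8.20 and 9.04 RPKM in KO and 28.9 and 29.8 RPKM in WT (log2 difference -1.66, adjusted p = 0.00044). Zfp980 had 3.21 and 3.09 RPKM in KO and 12 and 9.50 RPKM in WT (-1.49, adjusted p = 0.000849), and Zfp534 7.18 and 5.16 RPKM in KO and 18.1 and 17.6 RPKM in WT (-1.41, adjusted p = 0.00255). For these genes the replicates of a genotype lay close together and far from the other genotype. Zfp600 stood apart, with 0.124 and 26.9 RPKM in KO and 0.376 and 0.269 RPKM in WT, so that its value rests on KO replicate 2. At later sizes 5 genes of the cluster were called lower at GO2, 7 at nFGO and 10 at FGO. Both stretches together hold 36 tested genes (0.247% of all) and 11 of the 97 genes that fell with each library left out (11.3%), all of the 11 such genes on chromosome 4. Over the genome, 32 of the 300 tested genes named Zfp with a number fell (10.7%) and 5 rose, with a median of -0.20. Outside the cluster 26 of 285 fell (9.12%), among them Zfp940 on chromosome 7, with 4.18 and 2.69 RPKM in KO and 15.6 and 13.4 RPKM in WT (-1.82, adjusted p = 0.00521).

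**Figure D2:**
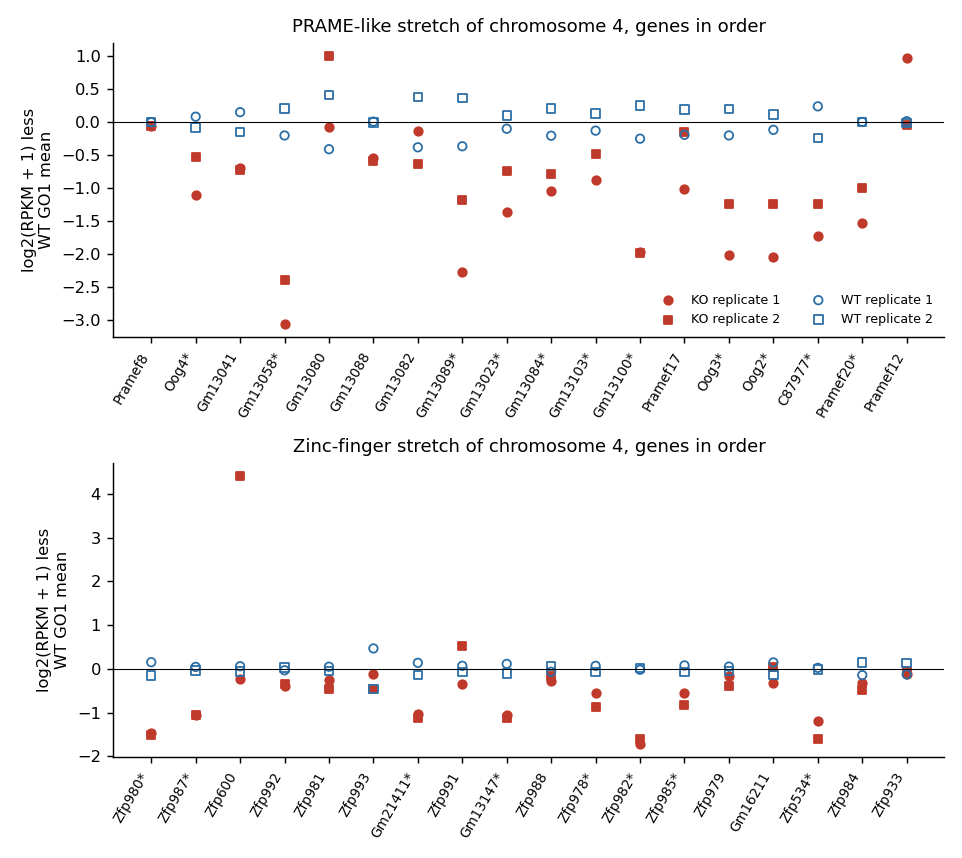
Each GO1 library's log2(RPKM + 1) less the WT mean, for the 18 tested genes of each stretch of chromosome 4 in their order along the chromosome (distances not to scale); filled red marks are KO, open blue marks WT, circles replicate 1 and squares replicate 2. An asterisk after a name marks an adjusted p under 0.05: 11 genes in the upper panel and 8 in the lower, with both KO libraries below 0 for each. Every gene called lower at GO1 has both KO libraries below 0.

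Members of other oocyte families fell as well. The Fbxw list holds F-box genes read mainly in oocytes. Of its 13 genes 5 fell, 0 rose and all 13 differences were negative, with a median of -0.44 (-0.66 to -0.22 with single GO1 libraries left out). Over all genes 4.47% fell. Fbxw21 had 843 and 989 RPKM in KO and 1579 and 1389 RPKM in WT (-0.70, SE 0.10, adjusted p = 0.00334), and it kept its call with each GO1 library left out. Fbxw13 had 421 and 482 RPKM in KO and 705 and 720 RPKM in WT (-0.66, adjusted p = 0.0136), and was called without KO replicate 2 alone among the single omissions. The number of Fbxw genes that fell was 1, 3, 1 and 9 without WT replicate 1, WT replicate 2, KO replicate 1 and KO replicate 2. Of the Nlrp4, Nlrp9 and Nlrp14 list, NACHT-domain genes of the oocyte, 4 of 10 fell and 0 rose, with a median of -0.52, and the count of falls was 2, 1, 1 and 5 without WT replicate 1, WT replicate 2, KO replicate 1 and KO replicate 2. Nlrp9c had 243 and 280 RPKM in KO and 445 and 451 RPKM in WT (-0.78, SE 0.12, adjusted p = 0.00378) and was the one that kept its call with each library left out. These genes also have close paralogs, and reads may have been split between them.

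The egg coat and the proteins of the subcortical maternal complex did not pass the test. Of the 4 genes of the zona pellucida list, Zp1, Zp2, Zp3 and Zp3r, 0 were called. Zp3r is named as a Zp3 receptor rather than a coat protein. Zp3, whose promoter drives the Cre, had 5172 and 7543 RPKM in KO and 7639 and 6693 RPKM in WT, with overlapping genotypes (-0.20, adjusted p = 0.51). Of the 8 genes of the subcortical complex 0 were called; Nlrp5 had 636 and 1024 RPKM in KO and 790 and 1259 RPKM in WT (-0.31). Of 9 secreted factors 2 fell and 1 rose, against 4.47% and 2.16% of all genes. Bmp15, which signals to granulosa cells, had 553 and 641 RPKM in KO and 815 and 960 RPKM in WT (-0.57, adjusted p = 0.0242), while Gdf9 had 2652 and 3301 RPKM in KO and 3443 and 3627 RPKM in WT (-0.26, adjusted p = 0.428). The fall of Bmp15 was no longer called without WT replicate 1, WT replicate 2 or KO replicate 1 (adjusted p = 0.054, 0.16 and 0.16). Oosp3, an oocyte-secreted protein gene, had 1470 and 1476 RPKM in KO and 1733 and 1830 RPKM in WT (-0.27, adjusted p = 0.0354). Its relative Oosp2 rose, with 1573 and 1494 RPKM in KO and 1193 and 1348 RPKM in WT (0.27, adjusted p = 0.0363). Oosp3 was called without KO replicate 2 alone among the single omissions, and Oosp2 lost its call without WT replicate 1 or KO replicate 1 (adjusted p = 0.24 and 0.17).

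Of 18 oocyte transcription factors 2 fell and 0 rose, against 4.47% and 2.16% of all genes. Ehf, an ETS-family factor on chromosome 2, had 22 and 32.6 RPKM in KO and 131 and 116 RPKM in WT (log2 difference -2.16, SE 0.19, adjusted p = 0.000205). Both KO libraries were far below the lower WT library, and the call was kept with each GO1 library left out. Nobox, a homeobox factor needed for oocyte growth, had 348 and 436 RPKM in KO and 559 and 537 RPKM in WT (-0.49, adjusted p = 0.0307); its adjusted p was 0.15, 0.11 and 0.19 without WT replicate 1, WT replicate 2 and KO replicate 1. Figla, which drives zona genes, had 351 and 368 RPKM in KO and 343 and 317 RPKM in WT (0.12, adjusted p = 0.635).

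Lrrc17, a secreted leucine-rich-repeat protein gene, had 13.5 and 23.7 RPKM in KO and 110 and 82.7 RPKM in WT (-2.34, SE 0.22, adjusted p = 0.000289). Timd4, a phosphatidylserine receptor gene, had 2.55 and 1.28 RPKM in KO and 14 and 11.5 RPKM in WT (-2.26, SE 0.24, adjusted p = 0.000545). Gbp7, an interferon-inducible GTPase gene, had 0.636 and 0.330 RPKM in KO and 8.89 and 5.86 RPKM in WT (-2.48, SE 0.28, adjusted p = 0.000717). In all of these every KO library was far below every WT library. Of the 12 interferon and immune genes tested 4 fell and 0 rose, against 4.47% and 2.16% of all genes. The other fallen members were Oas1c and Oas1d, oligoadenylate synthetase genes, at -0.53 and -0.52. Both lost their call without WT replicate 1, WT replicate 2 or KO replicate 1.

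Akr1b8, an aldo-keto reductase gene, had 2.44 and 2.02 RPKM in KO and 12.5 and 18.5 RPKM in WT (-2.33, SE 0.25, adjusted p = 0.000603). Arl8a, a lysosomal small GTPase gene, had 3.65 and 5.48 RPKM in KO and 23.5 and 23.7 RPKM in WT (-2.16, SE 0.33, adjusted p = 0.00433). Both genes had replicates close together and genotypes well apart. The following genes were chosen after their values were seen, out of the 97 that fell with each library left out. Apoe, the lipid carrier apolipoprotein E, had 6.61 and 10.6 RPKM in KO and 34.1 and 29.5 RPKM in WT (-1.80, adjusted p = 0.00105). Cd36, a fatty-acid uptake receptor, had 37.1 and 45.8 RPKM in KO and 67.6 and 66.6 RPKM in WT (-0.69, adjusted p = 0.00531). Crabp2, which carries retinoic acid in the cell, had 9.43 and 8.44 RPKM in KO and 23.3 and 26.0 RPKM in WT (-1.37, adjusted p = 0.00373). Their genotypes did not overlap. Srgn, the proteoglycan serglycin, had 61.4 and 38.8 RPKM in KO and 116 and 137 RPKM in WT (-1.35, adjusted p = 0.00174), and Rgs10, a regulator of G-protein signalling, 12.7 and 22.3 RPKM in KO and 77.0 and 52.5 RPKM in WT (-1.85, adjusted p = 0.00296). Glmn, glomulin, which binds cullin-RING ubiquitin ligases, had 103 and 97.7 RPKM in KO and 223 and 270 RPKM in WT (-1.28, adjusted p = 0.00367).

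**Figure D3:**
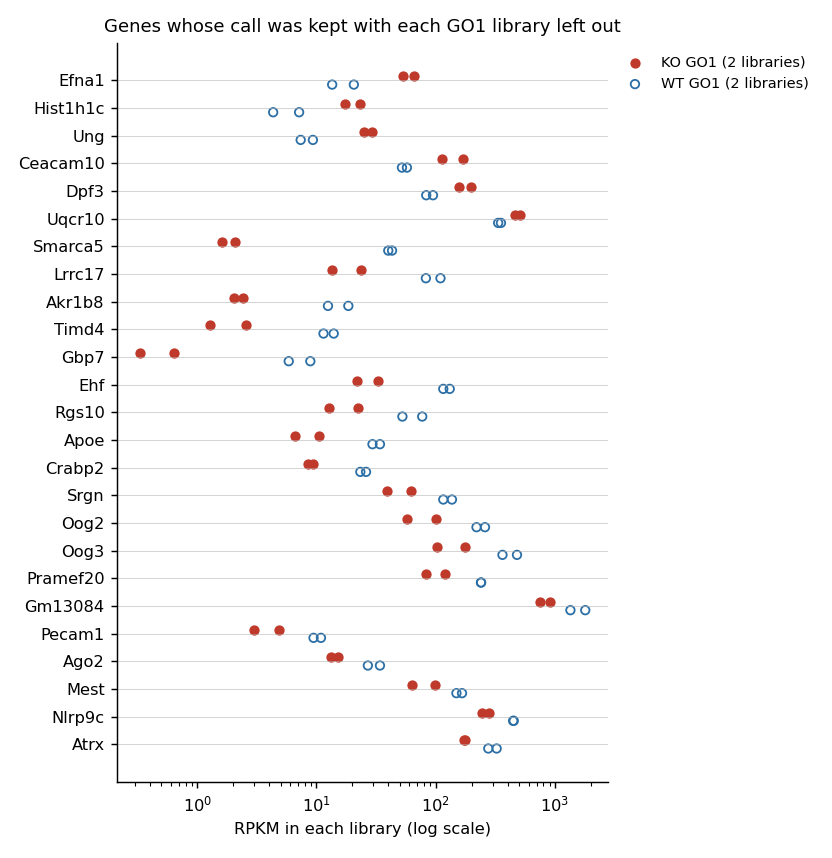
RPKM in each GO1 library (horizontal, log scale) of 25 genes whose call was kept with each GO1 library left out; filled red points are the 2 KO libraries and open blue points the 2 WT libraries. From Efna1 down to Uqcr10 the KO points lie right of the WT points and from Smarca5 down to Atrx left of them. No row overlaps, which held for every gene called at GO1.

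The genes that rose with each library left out were fewer, 18 in all. Efna1, an ephrin ligand gene, had 53.4 and 65.7 RPKM in KO and 13.5 and 20.6 RPKM in WT (log2 difference 1.77, SE 0.24, adjusted p = 0.00201). Hist1h1c, a replication-dependent linker histone gene, had 23 and 17.5 RPKM in KO and 4.34 and 7.16 RPKM in WT (1.67, SE 0.22, adjusted p = 0.00157). Tfec, a transcription factor gene of the MiT family, had 4.41 and 7.27 RPKM in KO and 0.436 and 0.780 RPKM in WT (2.06, SE 0.32, adjusted p = 0.00444). Each KO library was above each WT library for these genes. Ung, the uracil-DNA glycosylase of base excision repair, had 29.4 and 25.0 RPKM in KO and 9.34 and 7.38 RPKM in WT (1.60, SE 0.16, adjusted p = 0.000395). Among the remaining rises, chosen after their values were seen, were Dpf3, a subunit of neural and muscle BAF remodellers, with 198 and 158 RPKM in KO and 94.8 and 83.2 RPKM in WT (0.99, adjusted p = 0.00159), Ceacam10 with 113 and 170 RPKM in KO and 57.3 and 52.1 RPKM in WT (1.33, adjusted p = 0.0022) and the tRNA-splicing endonuclease gene Tsen15 with 16.7 and 19.1 RPKM in KO and 6.76 and 6.39 RPKM in WT (1.32, adjusted p = 0.00147). Larger rises that lost their call with a library left out included the neural zinc-finger gene Insm1, with 29.8 and 12.8 RPKM in KO and 5.55 and 6.03 RPKM in WT (1.60, adjusted p = 0.0144), which was called without KO replicate 2 but not without any other GO1 library (adjusted p = 0.07 to 0.088).

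Some genes of the translation and respiration machinery rose in KO by small amounts, and their number varied with the libraries used. Over all genes 2.16% rose and 4.47% fell, and of genes at 100 RPKM or more in WT 5.07% rose and 7.68% fell. Of the 81 cytosolic ribosomal protein genes 22 rose and 0 fell. Of their 81 differences 77 were positive, with a median of 0.28, against -0.03 over all genes. Rps19, of the small subunit, had 360 and 388 RPKM in KO and 261 and 241 RPKM in WT (0.57, SE 0.10, adjusted p = 0.00904), and was no longer called without WT replicate 2 (adjusted p = 0.073). Of 80 nuclear genes for oxidative phosphorylation 15 rose and 0 fell, with a median of 0.20. Uqcr10, a complex III subunit, had 505 and 464 RPKM in KO and 352 and 334 RPKM in WT (0.50, SE 0.07, adjusted p = 0.00345) and alone in this list kept its call with each library left out. Ndufa1, a complex I subunit, had 966 and 850 RPKM in KO and 677 and 656 RPKM in WT (0.44, SE 0.08, adjusted p = 0.00813), and was no longer called without WT replicate 2 or KO replicate 1 (adjusted p = 0.061 and 0.052). Of 78 mitochondrial ribosomal protein genes 5 rose and 0 fell, with a median of 0.12 (0.05 without KO replicate 2). The ribosomal protein count was 7, 0, 2 and 38 and the respiration count 5, 1, 3 and 24 without WT replicate 1, WT replicate 2, KO replicate 1 and KO replicate 2, and KO replicate 1 was also the library farthest from WT over all genes.

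Metabolic enzymes, aminoacyl-tRNA synthetases and heat shock genes had few calls, which are to be read against the 4.47% of all genes that fell. Of 22 cholesterol synthesis and uptake genes 2 fell, Sc5d and Hsd17b7, and 0 rose, with a median of -0.36; both were called without KO replicate 2 alone among the single omissions. Of 33 glycolysis and citrate cycle genes 2 fell and 0 rose, a share near that of all genes. The median was -0.21, but -0.01 without KO replicate 1, and 0 fell without WT replicate 1 or KO replicate 1. Got1, the cytosolic aspartate aminotransferase of the malate-aspartate shuttle, had 4.30 and 6.38 RPKM in KO and 24.1 and 19.6 RPKM in WT (-1.86, SE 0.30, adjusted p = 0.00552). Its genotypes were far apart, though its adjusted p was 0.051 without WT replicate 1 and 0.055 without KO replicate 1. Pkm, pyruvate kinase, had 83.6 and 131 RPKM in KO and 194 and 183 RPKM in WT (-0.84, adjusted p = 0.0269) and was called without KO replicate 2 alone among the single omissions. Of 19 aminoacyl-tRNA synthetase genes 2 fell, 0 rose and 18 differences were negative, with a median of -0.17 (-0.41 to -0.09 with single GO1 libraries left out). Dars, the aspartyl enzyme, had 23.6 and 29.8 RPKM in KO and 56.7 and 61.4 RPKM in WT (-1.13, adjusted p = 0.00818; 0.06 without WT replicate 2 and 0.07 without KO replicate 1). Of 17 heat shock genes 2 fell, Hspb1 and Dnajb4, and 0 rose, with a median of -0.20; both lost their call without WT replicate 1 (adjusted p = 0.11 and 0.054).

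**Figure D4:**
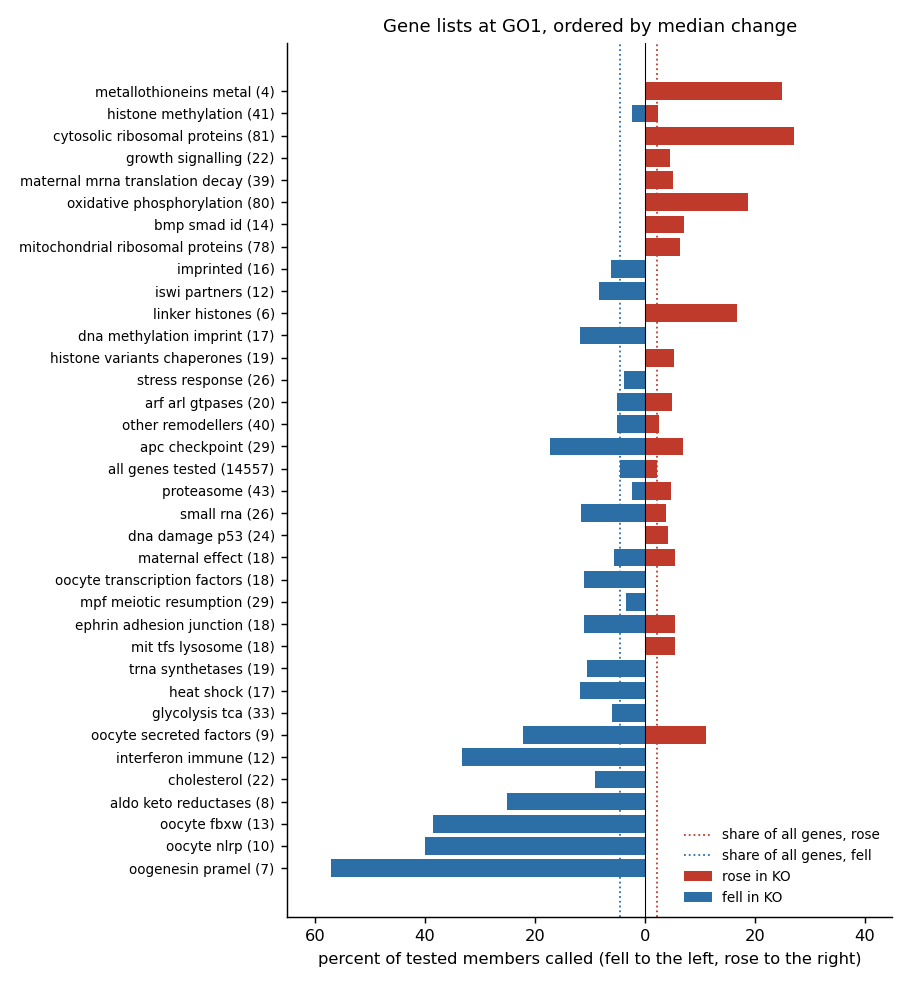
Percent of the tested members of each list that rose (right, red) or fell (left, blue) in KO at GO1, for lists with at least 1 called member; the number in brackets is the members tested, lists run downward by falling median change, and dotted lines give the shares over all genes, 2.16% and 4.47%. The oogenesin, Nlrp and Fbxw lists stand at the bottom and the ribosomal list near the top.

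Chromatin genes other than Smarca5 had few calls. The counts that follow are to be read against the 2.16% of all genes that rose and the 4.47% that fell. Of 40 other remodeller genes 1 rose and 2 fell, shares near those of all genes. Atrx, a remodeller that with Daxx places histone H3.3 at repeats, had 175 and 172 RPKM in KO and 276 and 324 RPKM in WT (-0.78, SE 0.10, adjusted p = 0.00174). The KO libraries were almost equal, and the call was kept with each GO1 library left out. Smarca4, an ATPase of the BAF complexes, had 11.5 and 8.09 RPKM in KO and 9.95 and 9.57 RPKM in WT (-0.01, adjusted p = 0.98). Of 17 DNA methylation and imprinting genes 2 fell and 0 rose. Dnmt3l, the cofactor of de novo methylation in oocytes, had 44.8 and 56.0 RPKM in KO and 98.9 and 80.4 RPKM in WT (-0.82, SE 0.15, adjusted p = 0.01; 0.094 without WT replicate 1 and 0.083 without KO replicate 1). Of 41 histone methylation genes 1 rose and 1 fell, against 2.16% and 4.47% of all genes, with 30 positive differences and a median of 0.28. The median was 0.05 without KO replicate 1, and 0 members were called without WT replicate 1, WT replicate 2 or KO replicate 1. Mest, an imprinted gene, had 62.8 and 98.3 RPKM in KO and 166 and 149 RPKM in WT (-0.99, SE 0.16, adjusted p = 0.00531) and was the 1 of 16 imprinted genes that fell.

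The lists of small RNA genes and of anaphase-promoting complex and checkpoint genes had members called in both directions. Over all genes 4.47% fell and 2.16% rose. Of 26 small RNA genes 3 fell and 1 rose. Ago2, the slicing Argonaute of endogenous siRNA pathways, had 13.3 and 15.2 RPKM in KO and 34.1 and 27 RPKM in WT (-1.04, SE 0.14, adjusted p = 0.00159), with each library left out as well. Ago3 had 77.0 and 91.4 RPKM in KO and 123 and 122 RPKM in WT (-0.54, adjusted p = 0.0186), and was called without KO replicate 2 alone among the single omissions. Of 29 genes of the anaphase-promoting complex and spindle checkpoint 5 fell and 2 rose. Fzr1, the activator of that complex that holds oocytes in prophase, had 35.7 and 47.7 RPKM in KO and 71.7 and 69.2 RPKM in WT (-0.76, adjusted p = 0.00901), and Bub1, a checkpoint kinase, 76.0 and 77.0 RPKM in KO and 113 and 114 RPKM in WT (-0.56, adjusted p = 0.0129). Of this list 0 members were called without WT replicate 1, WT replicate 2 or KO replicate 1, and 9 fell and 0 rose without KO replicate 2. Of 29 genes of meiotic recombination and cohesion 0 passed the test in either direction, with a median of 0.02, and of 8 retroviral and 2-cell genes 0 passed it.

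The share of genes called varied with the WT level. Of genes under 1 RPKM in WT 0.116% fell and 1.56% rose, of those at 5 to 20 RPKM 4.32% fell and 2.05% rose, and of those at 100 RPKM or more 7.68% fell and 5.07% rose. A gene near 0 in WT cannot fall far on this scale.

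The other sizes came from separate libraries, but the calls at all sizes used the same estimate of each gene's spread. A gene with a small spread is thus easier to call at every size, and the shares of shared calls carry that limit. Of all genes 7.64% were called at GO2, 16.2% at nFGO and 17.8% at FGO. Of the 651 genes that fell at GO1, 140 also fell at GO2 (21.5%; 4.68% of all genes fell there), 264 at nFGO (40.6%; 9.4%) and 296 at FGO (45.5%; 10.2%). Of the 314 genes that rose, 38 also rose at GO2 (12.1%, against 2.96% of all genes), 85 at nFGO (27.1%, against 6.77%) and 85 at FGO (27.1%, against 7.67%). At GO2 32 of the 314 fell, where 4.68% of all genes fell. The KO difference of the 314 was positive for 157 at GO2 (50.0%, against 49.6% of all genes), with a median of 0.003. It was positive for 244 at nFGO (77.7%, against 48.3%) and 237 at FGO (75.5%, against 48.9%). At all sizes 85 genes were called lower and 21 higher, and 260 and 154 were called at GO1 and at no other. Among the 97 stable falls, 56 fell at GO2, 61 at nFGO and 69 at FGO, with median changes of -1.40 at GO1, -0.72 at GO2, -0.72 at nFGO and -0.79 at FGO. Calls at GO1 chose these genes, so their larger median there is a description only. Across all genes the KO difference at GO1 had a Pearson r of 0.22 with that at GO2, 0.35 with nFGO and 0.37 with FGO. The Spearman rho was 0.11, 0.35 and 0.35. These are over 14557 genes, which are not independent replicates.

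**Figure D5:**
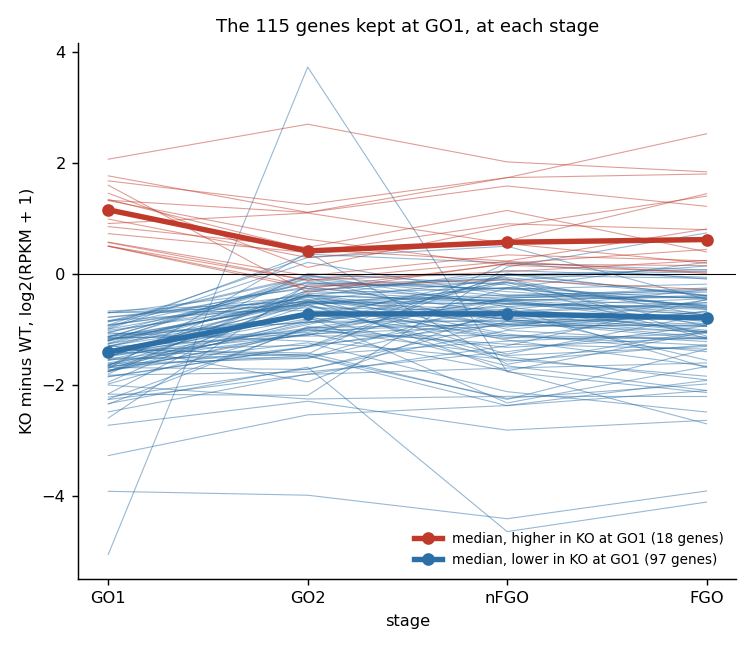
KO minus WT difference in log2(RPKM + 1) at GO1, GO2, nFGO and FGO for the 115 genes kept at GO1 with each library left out (Mt1, near 8 throughout, is off the drawn range); thin lines are genes, thick lines medians. The 97 lower genes have medians of -1.40, -0.72, -0.72 and -0.79; the line that peaks above 3 at GO2 is Snora47.

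The test of the difference between sizes called 582 genes for GO1 minus GO2 (4%), 314 with the KO difference more positive at GO1 (2.16%) and 268 more negative (1.84%). It called 357 for GO1 minus nFGO (2.45%; 1.33% more positive, 1.13% more negative) and 507 for GO1 minus FGO (3.48%; 1.77% more positive, 1.72% more negative), of which 36 and 91 were kept with each of the 8 libraries left out. Against GO2, 4 were kept in this way: Ung, Ube2s, Snora47 and Cyp2c53-ps. The KO difference of Ung was larger at GO1 by 1.93 (SE 0.22, adjusted p = 0.00693): at GO2 it had 15.8 and 16.2 RPKM in KO and 18.3 and 22.7 RPKM in WT, where no difference was called (-0.33). It also exceeded the difference at nFGO by 1.41 (adjusted p = 0.013), with each of the 8 libraries of that test left out as well. Ube2s, the ubiquitin-chain enzyme of the anaphase-promoting complex, had 308 and 310 RPKM in KO and 172 and 221 RPKM in WT at GO1, and 264 and 164 RPKM in KO and 540 and 452 RPKM in WT at GO2. Its genotypes are in opposite order at the 2 sizes (difference 1.90, adjusted p = 0.0108), though its rise at GO1 was lost without any single GO1 library (adjusted p = 0.072 to 0.28). Cyp2c53-ps, a cytochrome P450 pseudogene named outside the rule, had 216 and 192 RPKM in KO and 266 and 276 RPKM in WT at GO1, and 221 and 333 RPKM in KO and 79.5 and 82.6 RPKM in WT at GO2 (difference -2.14, adjusted p = 0.00362).

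The fall of Ehf was larger at GO1 than at GO2. At GO2 it had 130 and 154 RPKM in KO and 211 and 146 RPKM in WT, with overlapping genotypes, and the GO1 difference minus the GO2 difference was -1.85 (adjusted p = 0.0113). Mest had 104 and 97.3 RPKM in KO and 89.5 and 84.9 RPKM in WT at GO2, a change of -1.20 between sizes (adjusted p = 0.0212). Pecam1, a cell adhesion gene, had 3.01 and 4.89 RPKM in KO and 10.9 and 9.45 RPKM in WT at GO1 (-1.20, adjusted p = 0.00368), and 6.56 and 6.36 RPKM in KO and 7.46 and 6.41 RPKM in WT at GO2 (difference -1.11, adjusted p = 0.0349). Dnmt3l was in opposite order at GO2, with 93.2 and 117 RPKM in KO and 52.6 and 58.8 RPKM in WT (difference -1.71, adjusted p = 0.0092). For Ehf, Mest, Pecam1, Dnmt3l and Rps19 the test between GO1 and GO2 did not hold with every one of the 8 libraries left out.

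Ribosomal protein genes were called in opposite directions at the growing sizes, though the counts depended on single libraries. At GO2 29 of the 81 fell in KO and 0 rose, against 4.68% and 2.96% of all genes. The GO2 libraries summed to 845605 and 832384 RPKM in KO and 924633 and 927347 RPKM in WT. Whether that gap bears on the falls at GO2 was not tested. The test between sizes called 43 of the 81 as more positive at GO1 and 0 as more negative, against 2.16% and 1.84% of all genes. The median difference between sizes was 0.57. For oxidative phosphorylation 27 of 80 fell and 1 rose at GO2, and 36 of the 80 were more positive and 1 more negative at GO1. With single libraries of the 8 left out these counts ran between 0 and 53 for the ribosomal and between 0 and 48 for the respiration genes. Rps19 had 206 and 207 RPKM in KO and 316 and 275 RPKM in WT at GO2 (difference 1.09, adjusted p = 0.0108). In the Fbxw list 5 of 13 genes were called lower at GO1 and 4 at GO2, and 0 of the 13 differed between them by the test.

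The authors' deposited table gives its own class for each gene at GO1. It lists 590 genes as up-regulated, of which 140 of the 587 tested here (23.9%) were also called higher, and 691 as down-regulated, of which 401 of the 689 tested (58.2%) were also called lower. None was called in the opposite direction. The authors' deposited table classes 420 of the genes called here (43.5%) as at a similar level. Of the 115 genes kept with each library left out, 92 were in the authors' deposited down-regulated class, 12 in the up-regulated class and 11 in the similar-level class.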

How the data were processed

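RNA-seq libraries were made from 20 oocytes each with a SMARTer kit and Nextera XT, per the labels' protocols. The submitters' processing notes give the mm10 build, DESeq 1.34.1 Cuffnorm of Cufflinks 2.2.1, the aligner HISAT2 2.1.0 and the trimmer Trim Galore 0.4.5. The authors deposited RPKM for 16 libraries, of which 0 per-sample columns were left unused. From the same deposited table came the authors' mean normalised count signal per genotype at GO1, their log2 fold change and their class of each gene at GO1. Of 16975 gene IDs, 35 listed 32 times each were left out. Low RPKM values did not give whole reads, so depth per library is unknown.

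Differences were fitted on log2(RPKM + 1) with limma 3.58.1 (R 4.3.3) over the 8 groups of 2 libraries, with a variance trend, for genes of at least 1 RPKM in at least 2 libraries. P-values were adjusted by Benjamini-Hochberg over 14557 genes, called under 0.05, and are two-sided; all adjusted p-values in the text are of this kind. All fold changes are KO minus WT on this scale, which understates changes of genes near 0. The 4 nFGO libraries are labelled polyA RNA and the other 12 total RNA, so size and RNA type cannot be told apart in comparisons with nFGO.

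Genes named are Smarca5, Mt1, the 15 largest called rises and falls of at least 5 RPKM whose libraries did not overlap, up to 5 called members of each of 45 gene lists, the 6 most positive and most negative of each comparison between sizes, list members that did not pass, and others stated as chosen after their values were seen. Members and lists were chosen with earlier results of these data known. Same-numbered replicates of KO and WT at GO1 did not deviate together (r = -0.01), so the numbers were not taken to pair samples. Alternatives were other pseudocounts, filters, scalings and sample sets, no variance trend, robust fitting, a replicate block and each library left out. Promoter windows were read from RefSeq by gene ID or symbol.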

Additional observations from a re-analysis of the deposited data

Results flagged for a closer look

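Some genes had a KO difference at GO1 unlike that at another size, by the limma test of the difference between sizes, with each of the 8 libraries of that test left out in turn as well. Reg3g, Hist1h1e, Gm30564, Spn-ps and Robo2 were under 1 RPKM in every GO1 library and passed the filter through other sizes, so their values rest on the other size and say nothing of a fall at GO1. The same holds for 1700001G11Rik, which among the GO1 libraries reached 1 RPKM in WT replicate 2 alone (2.01 RPKM). The value given for each is the GO1 difference minus the other, on the log2(RPKM + 1) scale.

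Snora47, a small nucleolar RNA, was listed at 0 in both KO libraries at GO1, against 26.1 and 39.3 RPKM in WT. At GO2 it had 12 and 12.4 RPKM in KO and was listed at 0 in both WT libraries, a difference of -8.77 between the sizes. It also differed against nFGO by -3.28 and against FGO by -2.91. Whether the zeros are failed estimates was not tested.

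Against nFGO, Hist1h1e, a linker histone gene, differed by -2.54. It had 0.426 and 0.761 RPKM in KO and 0.371 and 0.320 RPKM in WT at GO1, and 10.2 and 8.32 RPKM in KO and 0.681 and 0.331 RPKM in WT at nFGO. Gm13962 differed by -2.56; it had 3.45 and 4.37 RPKM in KO and 7.77 and 7.93 RPKM in WT at GO1, and 3.62 and 3.42 RPKM in KO and 0.351 and 0.419 RPKM in WT at nFGO. Reg3g, an antimicrobial lectin gene, differed by 2.81. It had 0.863 and 0.436 RPKM in KO and 0.0901 and 0.181 RPKM in WT at GO1, and 2.46 RPKM in both KO libraries and 13 and 19.1 RPKM in WT at nFGO. 1700001G11Rik differed by 2.74, Gm30564 by 2.59 and Spn-ps by 2.50, all lower in KO at nFGO, where the KO libraries had 0.140 to 0.753 RPKM and the WT libraries 5.85 to 13.8 RPKM. At GO1 the KO libraries of these genes had 0 to 0.661 RPKM and the WT libraries 0.193 to 2.01 RPKM. The nFGO libraries are labelled polyA RNA, and the part of that difference in these values cannot be told apart from size.

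Against FGO, Klhdc8b differed by -3.61. It had 1.10 and 1.22 RPKM in KO and 1.46 and 0.955 RPKM in WT at GO1, and 14.9 and 17.6 RPKM in KO and 0.622 and 0.252 RPKM in WT at FGO. Cldn9, a tight-junction claudin gene, differed by -3.06. It had 1.19 and 3.32 RPKM in KO and 4.54 and 5.10 RPKM in WT at GO1, and 14.7 and 13.4 RPKM in KO and 2.29 and 2.55 RPKM in WT at FGO. Robo2, an axon guidance receptor gene, differed by 3.15. It had 0.361 and 0.167 RPKM in KO at GO1, against 0 and 0.137 RPKM in WT, and 1.89 and 2.40 RPKM in KO and 18.9 and 26.8 RPKM in WT at FGO. Gm7908 differed by 2.67. It had 36.7 and 30.6 RPKM in KO and 27.3 and 29.8 RPKM in WT at GO1, and 6.83 and 6.02 RPKM in KO and 41.7 and 37.2 RPKM in WT at FGO.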

How the results depend on the processing

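The 965 calls at GO1 became 16 with the 4 GO1 libraries alone (2 higher, 14 lower; 9 of them among the 965), 291 with the 8 GO1 and GO2 libraries (76 higher, 215 lower) and 596 without the 4 nFGO libraries (168 higher, 428 lower); these fits have fewer samples to estimate the spread. With single GO1 libraries left out the count ran between 231 and 2741, between 41 and 1091 for higher genes and between 167 and 1650 for lower genes. It was highest without KO replicate 2, and 866 of the 965 were called in that fit. Scaling moved the split of higher against lower calls, which was 314 against 651: it was 427 against 554 with equal library medians, 416 against 581 with quantile normalization and 392 against 635 with equal RPKM totals. The 582 genes that differed between GO1 and GO2 became 15 with those 8 libraries alone, 118 without the nFGO libraries, 101 with no variance trend and 4 to 2402 with single libraries left out. The 357 against nFGO ran between 54 and 1331 and the 507 against FGO between 122 and 1475 with single libraries left out. The cause of these shifts was not tested. Smarca5 stayed called and lower under every alternative run. With the replicate number as a block 1033 genes were called at GO1 (343 higher, 690 lower), 670 for GO1 minus GO2, 336 for GO1 minus nFGO and 527 for GO1 minus FGO, so the block changed no count by 1.5 times. Of the 106 named genes called at GO1, 34 to 102 kept their call with single GO1 libraries left out 5 with the 4 GO1 libraries alone, 50 with the 8 GO1 and GO2 libraries and 78 without nFGO; 0 reversed. Reversals were limited to genes not called at GO1. With single GO1 libraries left out 1700001G11Rik ran between -0.96 and 0.086, Gm16378 between -0.87 and 0.62, Ighv1-44 between -0.81 and 0.28, Klhdc8b between -0.19 and 0.15, Prl8a2 between -0.45 and 0.093 and Tlr3 between -0.090 and 0.31. Klhdc8b was at 0.020 with equal library medians and 0.016 with quantile normalization. With unknown depth per library, no counting interval can be given, and 2 libraries per group limit what can be called.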
